A study of Mus musculus with 32 samples.

Results

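Sox1, Sox3, Sox21, Pax6, Nes, Zic1, Pou3f2, Pou3f3, Msi1 and Zfp521 are markers of neuroectoderm and of neural progenitors. They were taken by gene symbol from every count table, and these 10 genes of 55573 are described across all libraries. RNA was sequenced from mouse cells of strain 129S5/SvEvBrd whose Smarce1 gene, which encodes the SWI/SNF chromatin remodelling subunit BAF57, carries a tag. The genotype Smarce1-MD (MD below) has the tag called MD, and Smarce1-MD(R42A) (R42A below) has that tag with the substitution R42A, so that cells of every group are tagged and no untagged cells are analysed here. The labels do not expand the name; MD is taken, from textbook knowledge, to be a mitotic degron, a cyclin-derived stretch that marks a protein for breakdown at the exit from mitosis, and R42A its inactive form. A degron works on the protein level, and the count of Smarce1 RNA therefore does not check the genotype labels.

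Neural cultures (4 MD libraries under the clone labels 09 and 30, and 4 R42A libraries under A04 and A10) were embryonic stem cells (ESC) kept for 6 days in a neural medium, written RHB-A in one label and RHA-B in another. ESC (12 MD libraries of the clones 09, 30, 45 and 47, and 12 R42A libraries of A04, A10, A01 and A02) were grown on gelatin with serum and the cytokine LIF. Each clone label is taken as a line of its own. The study set MD against R42A in both stages.

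In the vertebrate embryo, ectoderm that escapes BMP signals turns into neuroectoderm, whose cells switch on the SOXB1 transcription factors (Sox1, Sox2, Sox3) and keep dividing as neural progenitors. Sox1 is one of the earliest markers of this step in mouse ESC cultures, and Pax6, Zic1 and the POU factors Pou3f2 (Brn2) and Pou3f3 (Brn1) pattern the progenitors and prepare neurogenesis. Nes, an intermediate filament protein, and Msi1, an RNA-binding protein, mark the progenitor state itself, and Zfp521 is a zinc finger factor known to drive mouse ESC into the neural lineage.

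The promoters of Nes, Sox21 and Sox1 are shown because these 3 genes are among the 4 called between the genotypes in ESC. Each window runs from 250 bases before to 50 bases after the start (RefSeq, GRCm38.p6), is written 5′ to 3′ on the strand of its gene, and has in capitals every match, on either strand, to 5 motifs: the GC box GGGCGG, the CCAAT box, the SOX core ACAAT, the octamer sequence ATGCAAA and the TATA box TATAAA. No bases are shared between matches of different motifs in these windows.
Nes, chr3:87970843-87971142, plus strand: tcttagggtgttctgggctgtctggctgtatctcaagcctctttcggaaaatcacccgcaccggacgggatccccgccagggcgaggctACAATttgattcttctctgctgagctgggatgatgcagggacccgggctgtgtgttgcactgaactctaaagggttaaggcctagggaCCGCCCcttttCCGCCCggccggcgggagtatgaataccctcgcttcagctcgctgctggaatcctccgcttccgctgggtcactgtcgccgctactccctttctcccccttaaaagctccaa
Sox21, chr14:118236981-118237280, minus strand: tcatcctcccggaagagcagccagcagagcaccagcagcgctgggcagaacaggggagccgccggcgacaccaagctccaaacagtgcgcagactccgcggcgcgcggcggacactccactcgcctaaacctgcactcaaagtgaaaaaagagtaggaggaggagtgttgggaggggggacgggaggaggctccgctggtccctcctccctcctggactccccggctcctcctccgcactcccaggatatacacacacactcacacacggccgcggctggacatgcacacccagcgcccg
Sox1, chr8:12395269-12395568, plus strand: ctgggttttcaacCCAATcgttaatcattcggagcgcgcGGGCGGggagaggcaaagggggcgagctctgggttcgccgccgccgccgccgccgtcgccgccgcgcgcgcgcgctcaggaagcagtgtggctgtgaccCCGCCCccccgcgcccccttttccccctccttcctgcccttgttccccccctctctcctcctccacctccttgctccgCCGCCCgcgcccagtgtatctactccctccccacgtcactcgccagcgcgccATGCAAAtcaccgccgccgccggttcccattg
The Nes window held 2 GC boxes and 1 ACAAT, the Sox1 window 3 GC boxes, 1 CCAAT box and 1 octamer, and the Sox21 window none of these letters. Promoter windows were found for 7 of the 10 genes, 8 windows in all, since Pax6 has more than 1 start; Sox3, Msi1 and Zfp521 are named only. GGGCGG was present in 5 of the 8 windows and in 35.7% of 32841 mouse promoters of the same length. CCAAT was in 5 windows (37.4% of all promoters), ACAAT in 3 (31%), ATGCAAA in 1 (4.63%) and TATAAA in 0 (13.6%). GC content in the 8 windows ran from 46.3% to 70.7%, beside a median of 52.7% over all promoters. A match to such short letters describes the window and is not a binding site.

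The genes lie apart in the genome (mm10, GENCODE M21): Sox1 at chr8:12395295-12400126, Sox3 at chrX:60891366-60893430, Sox21 at chr14:118233232-118237030, Pax6 at chr2:105668900-105697364, Nes at chr3:87971078-87980451, Zic1 at chr9:91358058-91365810, Pou3f2 at chr4:22482780-22488366, Pou3f3 at chr1:42695768-42703176, Msi1 at chr5:115429599-115455698 and Zfp521 at chr18:13687013-13972787. All are protein-coding.

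Total counts per library ran from 38699951 to 96424439, and every neural library had at least 44426445. Levels are CPM (counts scaled to the same library total) on the TMM scale, a clone's level is the mean of its libraries, and errors of levels are SD over clones. Tests are edgeR quasi-likelihood tests on the summed counts of each clone, with p-values adjusted over all genes tested, and a gene with an adjusted p under 0.05 is called. ESC came in 2 series of library numbers (09, 30, A04 and A10, then 45, 47, A01 and A02), and the neural libraries carry numbers of a separate range, so that differences of stage and of library number series cannot be told apart. What the number series stand for is not given in the sources used here.

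The neural clone labels differed about as much as libraries of 1 label. Between the R42A labels A04 and A10, the median absolute log2 ratio over 12886 genes was 0.071 in neural cultures, no more than the 0.084 between libraries of 1 label, whereas the same clones in ESC gave 0.23 between clones and 0.16 within. For the MD labels 09 and 30 the values between and within were 0.072 and 0.071 in neural cultures, and 0.153 and 0.146 in ESC. Genes of chromosome 8 were higher in A04 than in A10 by a median of 0.33 (log2) in ESC and by 0.0097 in neural cultures. Neural libraries still differed by more than sampling noise (chi-square per degree of freedom 3.13 to 10.9), so none was counted as a repeat deposit. Whether the labels are separate cultures was not tested, and p-values for neural cultures may measure technical spread. In ESC, too, 09 and 30 differed about as much as libraries of 1 clone, and both count as units in the ESC tests. With the 4 neural libraries of each genotype summed as 1 sample, an alternative chosen after seeing the data, edgeR called 0 genes between neural MD and R42A, 5131 having an unadjusted p under 0.05.

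All 10 genes were far higher in neural cultures than in ESC in both genotypes. Their summed level was 1844 ± 47.3 CPM in MD neural cultures (SD, n = 2 labels) and 109 ± 27.7 CPM in MD ESC (SD, n = 4 clones). In R42A it was 2141 ± 25.7 CPM in neural cultures (SD, n = 2) and 70.0 ± 10.3 CPM in ESC (SD, n = 4). Each gene was called higher in neural cultures in MD and in R42A (background in MD: 40.3% of 23844 genes called higher, 41% lower and 81.3% either; in R42A 37.9%, 40.4% and 78.3%), and this held with the neural libraries merged. In bulk RNA, fewer cells of a type and less RNA per cell cannot be told apart.

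**Figure D1:**
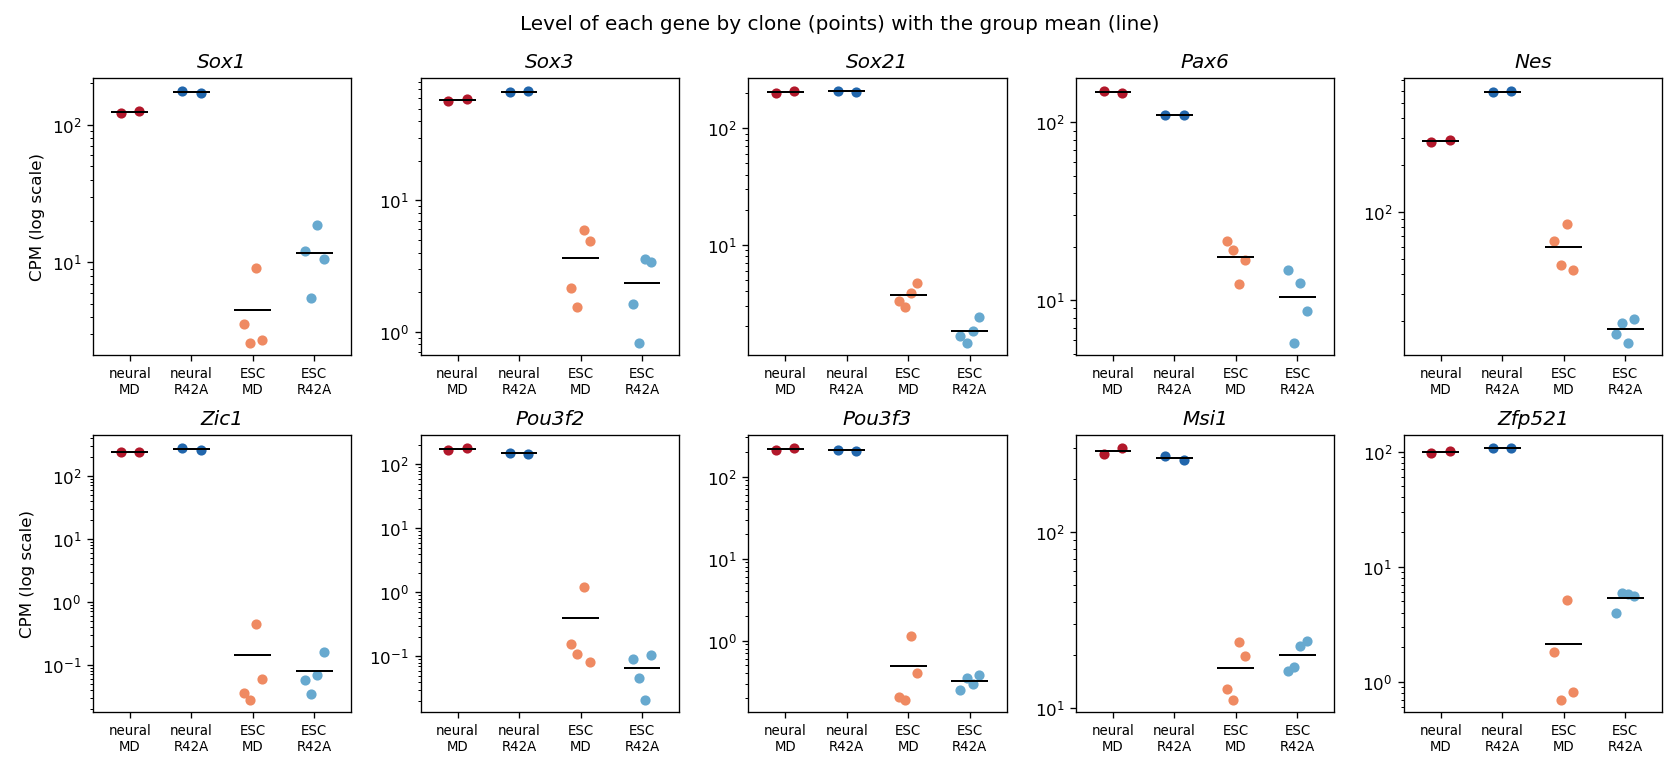
Level of each gene in CPM (log axis) in neural MD, neural R42A, ESC MD and ESC R42A; points are clones or clone labels and lines group means. Neural points lie above all ESC points for all 10 genes, and ESC clones spread more widely than neural labels.

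Zic1, a zinc finger factor of the dorsal neural tube, had the largest difference between stages. It stood at 239.5 ± 3.67 CPM in MD neural cultures and 0.142 ± 0.203 CPM in MD ESC, a log2 fold change of 12.66 ± 0.14 (SE, adjusted p = 2.03e-08). In R42A it stood at 267 ± 13.1 CPM in neural cultures and 0.0796 ± 0.0540 CPM in ESC (log2 12.41 ± 0.13, adjusted p = 1.98e-08). The POU factors were also close to absent from ESC. Pou3f2 differed by 10.28 (log2) in MD and 11.11 in R42A, and Pou3f3 by 10.05 in MD and 9.45 in R42A. Zic1 had 6 to 66 counts per ESC clone over 3 libraries, and Pou3f2 3 to 180, so that the size of these differences rests on few ESC reads. Zic1 had 13, 8, 8 and 6 counts in the ESC sums of A04, A10, 09 and 30. These lay under the low-count filter, so that Zic1 entered the fit of both stages only through its neural libraries. A difference between the stages then had to follow for Zic1, and its p-values lend that difference no support. All 10 genes passed that filter in both fits.

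Genes already present in ESC differed less between the stages. Pax6, a homeodomain factor of neural progenitors, differed by 2.81 ± 0.38 in MD and 3.36 ± 0.39 in R42A (log2 ± SE). Nes differed by 2.30 ± 0.16 in MD and by 4.98 ± 0.18 in R42A. Msi1 differed by 4.52 ± 0.09 in MD and 3.96 ± 0.09 in R42A. Among the SOX genes, the log2 differences were 5.29 (MD) and 4.26 (R42A) for Sox1, 4.91 and 5.77 for Sox3, and 5.98 and 7.01 for Sox21, a SOXB2 factor. Zfp521 differed by 6.21 in MD and 4.41 in R42A. These stage differences share their sums with the genotype comparisons below.

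Per kilobase of exon, Sox21 stood highest in MD neural cultures at 54.2 CPM per kb, before Msi1 at 50.1 and Nes at 44.5, and Pax6 lowest at 12.7. In R42A neural cultures Nes stood highest at 91.9 CPM per kb, before Sox21 at 54.7 and Zic1 at 46.8, and Pax6 again lowest at 9.40. Zic1 and Msi1 (45.4) were the only neighbours in the 2 neural orders whose labels overlapped. In MD ESC Nes led at 9.28 CPM per kb, with no overlap with Msi1 at 2.91. In R42A ESC Msi1 led at 3.45, and its clones overlapped those of Nes (2.78). All other neighbours in the MD ESC order overlapped, as did all in the R42A ESC order except Sox21 with Pou3f3 and Pou3f3 with Zic1.

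In ESC, Nes and Sox21 were higher in every MD clone than in every R42A clone. Sox3 was called higher and Sox1 lower in MD as well, but for both the clones of the genotypes overlapped. Sox3 and Sox1 lost their calls with chromosomes scaled separately and with no series term, where Nes and Sox21 kept theirs; the first series alone called Nes and Sox21, and the second Sox3 and Sox21. Over all 10 genes, 3 were called higher in MD and 1 lower (background: 17.1% of 21567 genes higher, 19.4% lower and 36.5% either), a share near that of all genes. The members' median log2 fold change was 0.58, and that of all tested genes -0.035. The members' median lay between Zic1 (0.53) and Sox3 (0.62). Zic1 had 6 to 66 counts per ESC clone and a log2 fold change of -0.64 without clone 45. In neural cultures 1 of the 10 was called, Nes, which was lower in MD (background: 17.4% of 23844 genes higher, 16.3% lower and 33.7% either). The median there was -0.070 for the 10 genes and -0.0020 for all.

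**Figure D2:**
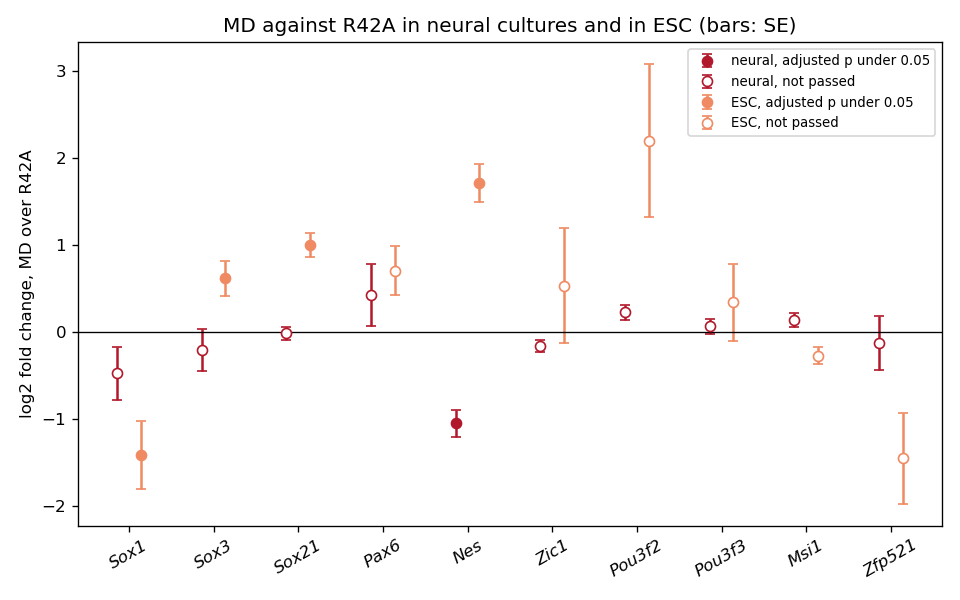
log2 fold change of MD over R42A for each gene, with SE, in neural cultures (left of each pair) and in ESC (right); filled points have an adjusted p under 0.05. Nes lies above 0 in ESC and below 0 in neural cultures, and the other neural points lie closer to 0 than 0.5.

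Nes, the intermediate filament protein of neural progenitors, had the smallest adjusted p of the 10 genes between the genotypes, in neural cultures and in ESC. In ESC it stood at 65.4, 46.0, 83.8 and 42.9 CPM in the MD clones 09, 30, 45 and 47, and at 16.5, 19.6, 14.6 and 20.7 CPM in the R42A clones A04, A10, A01 and A02. Every MD clone lay above every R42A clone. This was a log2 fold change of 1.71 ± 0.22 (SE, adjusted p = 0.000585). It was 1.65 (adjusted p = 0.024) within the first library series and 1.84 (adjusted p = 0.075) within the second, where 2 clones stand against 2. The same pattern of clone levels was seen in 2 of the 10 genes, Nes and Sox21 (background: 10.8% of 21567 genes with every MD clone above every R42A clone), and in 0 of the 10 did every MD clone lie below (10.2%), beside 21% of genes for either pattern. The lowest of 12 MD ESC libraries had 34.2 CPM of Nes and the highest of 12 R42A libraries 24.5 CPM.

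In neural cultures the order of the genotypes was the opposite. Nes stood at 288 and 275 CPM in the MD libraries labelled 09 and 292 and 286 CPM in those labelled 30, against 571 and 595 CPM in the R42A libraries labelled A04 and 617 and 574 CPM in those labelled A10. All MD libraries lay below all R42A libraries. This was a log2 fold change of -1.05 ± 0.15 (SE, adjusted p = 0.00241). It was not called without A04 (adjusted p = 0.0972), without A10 (adjusted p = 0.106) or with the labels merged (adjusted p = 0.134), at sizes of -1.06, -1.03 and -1.06. Nes made up 15.5% of the summed level of the 10 genes in MD neural cultures and 27.5% in R42A neural cultures. Its share was 54.7% in MD ESC and 25.5% in R42A ESC.

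Some markers of other cell types also differed between the genotypes. Genes of smooth muscle and fibroblasts summed to 105 to 109 CPM in MD neural cultures and 235 to 246 CPM in R42A neural cultures. Of these 8 genes, 3 were called higher and 5 lower in MD (background 17.4% higher, 16.3% lower). Higher were Col1a1, Col1a2 and Col3a1 (log2 2.02, 2.14 and 1.90). Lower were Acta2, Tagln, Cnn1, Myl9 and Thy1 (log2 -4.40, -4.82, -3.18, -2.93 and -0.98). In ESC the 8 genes summed to 92.5 to 143 CPM in MD and 14.3 to 35.9 CPM in R42A. There 7 of the 8 were called higher and 1 lower in MD (background 17.1% higher, 19.4% lower). Col3a1 was under 0.1 CPM in every R42A ESC clone. Endoderm markers summed to 410 to 441 CPM in MD neural cultures and 972 to 1119 CPM in R42A neural cultures, with 2 of 9 called lower in MD (background 16.3%), and Afp was under 0.1 CPM in both MD labels. Lama1, a laminin chain of basement membranes, made up most of that sum, at 293 ± 16.1 CPM under the MD labels, against 775 ± 76.9 CPM under the R42A labels (SD, n = 2). In ESC, where Nes was higher in MD, the endoderm sums overlapped, at 100.1 to 121 CPM in MD and 62.7 to 169 CPM in R42A, and 0 of 7 tested were called by edgeR. The part of such cells in the Nes difference was not tested.

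Sox21 was higher in MD ESC and close to equal in neural cultures. The MD clones 09, 30, 45 and 47 had 3.31, 2.95, 3.88 and 4.71 CPM, and the R42A clones A04, A10, A01 and A02 had 1.66, 1.45, 1.83 and 2.39 CPM. Every MD clone lay above every R42A clone. The log2 fold change was 1.00 ± 0.14 (SE, adjusted p = 0.000783), with 1.03 in each library series alone (adjusted p = 0.0461 and 0.0152). In neural cultures Sox21 had 203, 202, 212 and 206 CPM in MD libraries and 206, 212, 203 and 210.3 CPM in R42A libraries. The libraries overlapped, and the log2 fold change was -0.015 ± 0.075 (adjusted p = 0.911), with a sign that changed when each chromosome was scaled separately (0.043).

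Sox1, the SOXB1 factor switched on at neural commitment, was lower in MD ESC. It stood at 3.56, 2.60, 9.16 and 2.73 CPM in the MD clones 09, 30, 45 and 47, against 12.1, 5.47, 18.7 and 10.6 CPM in the R42A clones A04, A10, A01 and A02. Clone 45 lay above A10, while the other 3 MD clones lay below all R42A clones. The log2 fold change was -1.41 ± 0.39 (SE, adjusted p = 0.021). Sox1 lies on chromosome 8, whose 1085 tested genes had a median log2 fold change of -0.45 in ESC. With each chromosome scaled separately the change was -0.97 and not called (adjusted p = 0.0708). The call was also lost without A04, 09, 30 or A01 (adjusted p = 0.0679, 0.0504, 0.0629 and 0.0651), with no filter on low counts (0.122), with no series term (0.101), in the first series alone (-1.49, adjusted p = 0.0967) and in the second alone (-1.29, adjusted p = 0.326).

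In neural cultures Sox1 stood at 125 and 121 CPM (09) and 128 and 124 CPM (30) in MD, against 177 and 175 CPM (A04) and 164 and 175 CPM (A10) in R42A. The MD libraries lay below all R42A libraries. The log2 fold change was -0.47 ± 0.31 and not called (adjusted p = 0.283), and chromosome 8 had a median of -0.28 in this comparison.

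Sox3, the X-linked SOXB1 factor, was higher in MD ESC on average, at 3.62 ± 2.12 CPM against 2.36 ± 1.36 CPM in R42A (SD, n = 4 clones), and was called with library series in the fit. The MD clones 09 and 30 had 2.14 and 1.53 CPM beside 1.61 and 0.821 CPM in the R42A clones A04 and A10 of the same series. In the second series, the MD clones 45 and 47 had 5.92 and 4.88 CPM beside 3.58 and 3.41 CPM in the R42A clones A01 and A02. The second series stood higher in both genotypes, so that the genotypes overlapped over all 8 clones. With series in the fit, the log2 fold change was 0.62 ± 0.21 (SE, adjusted p = 0.0438), with 0.66 in the first series alone (adjusted p = 0.325) and 0.64 in the second (adjusted p = 0.0478). It was not called without the series term (adjusted p = 0.554), with chromosomes scaled separately (adjusted p = 0.0727), or without 09, A01, A02, 45 or 47 (adjusted p from 0.0657 to 0.139). In neural cultures Sox3 averaged 57.9 ± 1.09 CPM under the MD labels and 67.2 ± 1.13 CPM under the R42A labels (SD, n = 2), with overlapping libraries and no call (log2 -0.21 ± 0.24, adjusted p = 0.548).

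Pax6 was not called in either stage. Its neural libraries had 151, 149.7, 147 and 147 CPM in MD and 108, 113, 114 and 106 CPM in R42A. All MD libraries lay above all R42A libraries, but at a log2 fold change of 0.43 ± 0.35 the fit that shares its spread with ESC gave no call (adjusted p = 0.399). Without A04 and without A10, whose ESC clones differ in Pax6 (14.8 and 5.77 CPM), the same change was called (adjusted p = 0.000904 and 0.00112). In ESC Pax6 had 21.6, 19.2, 12.4 and 16.8 CPM in the MD clones 09, 30, 45 and 47 and 14.8, 5.77, 12.5 and 8.67 CPM in the R42A clones A04, A10, A01 and A02 (log2 0.71 ± 0.28, adjusted p = 0.08). Clone 45 lay among the R42A clones; without A10 the change was 0.49 and was called (adjusted p = 0.0298).

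Zic1, Pou3f2 and Pou3f3 were close to the limit of counting in ESC. Pou3f2 had 33, 21, 180 and 11 counts in the MD clones 09, 30, 45 and 47 and 18, 11, 3 and 14 counts in the R42A clones A04, A10, A01 and A02. The log2 fold change was 2.21 ± 0.88 (SE) with clone 45 (adjusted p = 0.0795) and 0.81 without it (adjusted p = 0.249). Zic1 had 8, 6, 66 and 8 counts in those MD clones and 13, 8, 10 and 21 in those R42A clones, and its log2 fold change was 0.53 with clone 45 (adjusted p = 0.564) and -0.64 without (adjusted p = 0.309). Pou3f3 had 43, 36, 168 and 55 counts in MD clones and 50, 80, 44 and 50 in R42A clones, with 0.34 (adjusted p = 0.582) and, without clone 45, -0.23 (adjusted p = 0.543). None of these 3 genes was called in ESC.

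In neural cultures the same 3 genes were abundant and differed little. Pou3f2 had 172, 166, 180.4 and 179 CPM in MD libraries and 155, 145, 152 and 142 CPM in R42A libraries. The MD libraries lay above the R42A libraries, with a log2 fold change of 0.23 ± 0.09 and no call in the main fit (adjusted p = 0.0938). The Pou3f2 change was called in 6 of 13 alternatives, among them without A04 and without A10 (adjusted p = 0.00745 and 0.0157). Zic1 had 235, 239, 243 and 241 CPM in MD libraries and 264, 287, 259 and 256 CPM in R42A libraries. Its MD libraries lay below the R42A libraries (log2 -0.16 ± 0.07, adjusted p = 0.124; without A10 -0.20, adjusted p = 0.0055). Pou3f3 averaged 219 ± 6.73 CPM under the MD labels and 208 ± 4.02 CPM under the R42A labels (SD, n = 2), with overlapping libraries and no call (log2 0.064 ± 0.089, adjusted p = 0.63).

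Msi1, which keeps progenitors dividing by binding target mRNAs, was not called in either stage. In ESC it had 12.9, 11.1, 23.9 and 19.7 CPM in the MD clones 09, 30, 45 and 47 and 16.3, 17.2, 22.4 and 24.1 CPM in the R42A clones A04, A10, A01 and A02. The 4 clones of the second series stood highest in both genotypes, and the genotypes overlapped (log2 -0.27 ± 0.10, adjusted p = 0.0627; without clone 45 -0.37, adjusted p = 0.012). In neural cultures it had 286, 274, 294 and 309 CPM in MD libraries and 259, 282, 243 and 270.1 CPM in R42A libraries, which overlapped (log2 0.14 ± 0.08, adjusted p = 0.239).

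Zfp521 was low in 3 of the 4 MD ESC clones. The MD clones 09, 30, 45 and 47 had 1.83, 0.698, 5.14 and 0.814 CPM, and the R42A clones A04, A10, A01 and A02 had 3.98, 5.87, 5.78 and 5.56 CPM. Clone 45 lay inside the R42A range. The log2 fold change was -1.45 ± 0.53 with clone 45 (adjusted p = 0.0581) and -2.28 ± 0.36 without it (adjusted p = 0.00295). In neural cultures Zfp521 had 95.7, 97.0, 102 and 98.4 CPM in MD libraries and 103, 111, 106 and 108 CPM in R42A libraries. The MD libraries lay below the R42A libraries, and the change was -0.13 ± 0.31 (adjusted p = 0.794).

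**Figure D3:**
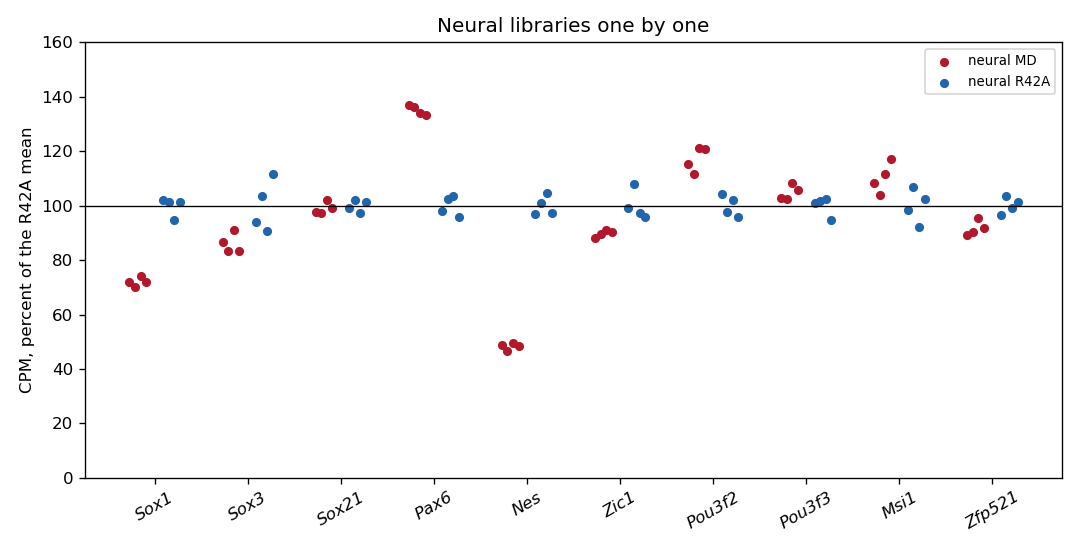
CPM of each neural library as a percentage of the gene's mean over the 4 R42A libraries; MD libraries are on the left of each pair and R42A libraries on the right. MD libraries lie wholly above R42A for Pax6 and Pou3f2 and wholly below for Sox1, Nes, Zic1 and Zfp521.

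Counted over libraries, MD lay wholly above R42A in neural cultures for 2 of the 10 genes and wholly below for 4. Over all 23844 tested genes these shares were 25.9% and 25.2%, or 51.1% for either, so a pattern of this kind was common. A fit on the neural sums alone called 8 of the 10 genes, all but Sox21 and Pou3f3, and 13643 genes in all, taking its spread from the labels that differed about as much as libraries of 1 label.

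The ESC clones of 1 genotype differed among themselves. The highest clone had between 1.42 and 16.1 times the level of the lowest, depending on gene and genotype, while neural labels differed by 1.00 to 1.08 times. MD clone 45 was the highest MD clone for 8 of the 10 genes, and over all 21567 tested genes it was highest for 22.9%. For Sox1, Zic1 and Pou3f2 its distance to the next clone, as a share of the range of the 4 MD clones, passed Dixon's critical value, which clone 45 did at the top in 0.862% of all tested genes. The summed level of the 10 genes was 111, 84.5, 147 and 93.1 CPM in the MD clones 09, 30, 45 and 47 and 67.4, 56.6, 79.8 and 76.0 CPM in the R42A clones A04, A10, A01 and A02. All MD sums lay above all R42A sums, but not without Nes. The other 9 genes summed to 45.7, 38.5, 63.2 and 50.2 CPM in those MD clones. In those R42A clones they summed to 50.9, 37.0, 65.2 and 55.4 CPM, so that the genotypes overlapped. Nes alone averaged 59.5 CPM over the 4 MD clones, against 17.8 CPM over the 4 R42A clones.

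**Figure D4:**
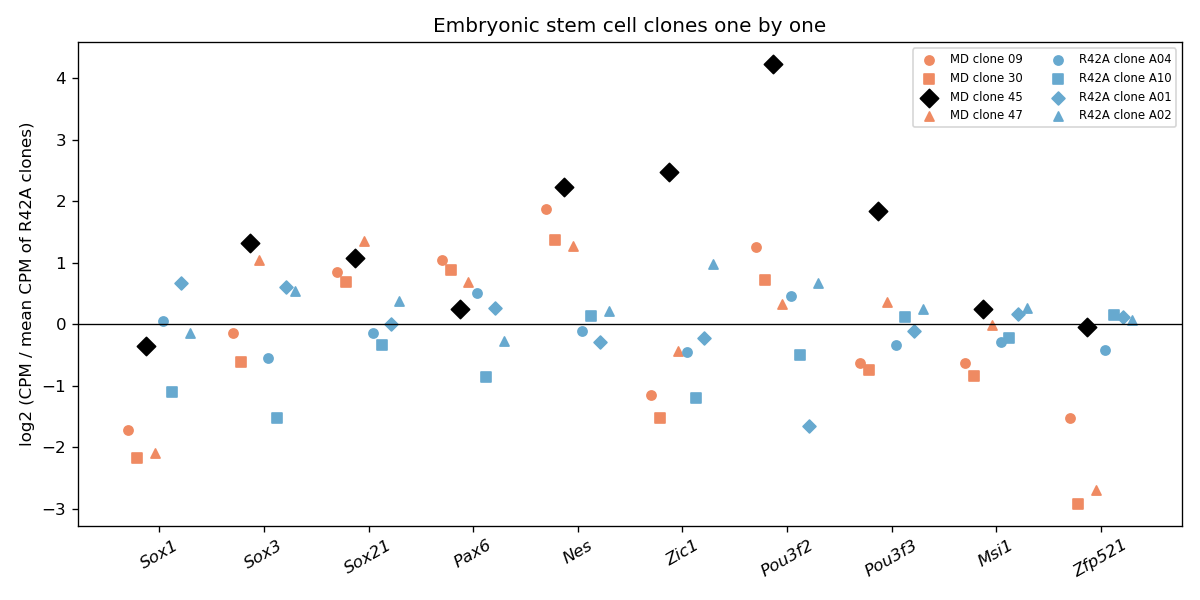
log2 ratio of each ESC clone's CPM to the mean of the 4 R42A clones, by gene; MD clones are on the left of each group (clone 45 in black) and R42A clones on the right. Clone 45 is the highest MD clone for all genes but Sox21 and Pax6, and all MD clones lie above all R42A clones for Nes and Sox21.

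Whether the difference between MD and R42A itself changed with stage was tested on the clone labels 09, 30, A04 and A10, present in both stages. Of the 10 genes, 2 were called with a higher MD to R42A ratio in neural cultures than in ESC and 2 with a lower one (background: 11.9% of 23844 genes higher, 11.1% lower and 22.9% either). The log2 ratio of Nes differed by -2.68 ± 0.22 (SE, adjusted p = 0.000654). Sox21 differed by -1.03 ± 0.12 (adjusted p = 0.00175), Msi1 by 0.56 ± 0.11 (adjusted p = 0.0143) and Zfp521 by 1.80 ± 0.47 (adjusted p = 0.033). Sox1, at 1.03 ± 0.45, was not called (adjusted p = 0.146), nor were Sox3, Pax6, Zic1, Pou3f2 and Pou3f3. The Nes call held without each label in turn, the Sox21 and Msi1 calls were lost without 09 (adjusted p = 0.075 and 0.111) and without 30 (0.0632 and 0.225), and the Zfp521 call without any of the 4 (0.0709 to 0.3) and with no filter on low counts (0.162). With neural labels merged none of the 4 was called (adjusted p = 0.0809 for Nes, 0.11 for Sox21, 0.212 for Msi1 and 0.298 for Zfp521), at sizes of -2.69, -1.03, 0.56 and 1.80; edgeR then called 0 genes in all, with 4559 at an unadjusted p under 0.05.

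Several members overlap other annotated genes, and whether counting used strand is not given in the sources used here. Sox1 lies inside Sox1ot, a transcript on the same strand, which had 0.117 ± 0.0494 CPM in MD ESC and 0.498 ± 0.290 CPM in R42A ESC (SD, n = 4 clones). Sox1ot was lower in MD ESC, by a log2 fold change of -1.97 ± 0.45 (adjusted p = 0.00953), as Sox1 was, and reads of the 2 genes may be shared. Zic1 overlaps Zic4 on the other strand, which stood at 54.7 ± 0.127 CPM in MD neural cultures and 58.7 ± 2.60 CPM in R42A neural cultures (SD, n = 2), with no call (log2 -0.11 ± 0.13, adjusted p = 0.588). Pantr1, a long noncoding RNA whose start lies 926 bases from that of Pou3f3, stood at 35.8 ± 0.154 CPM in MD neural cultures and 32.1 ± 1.23 CPM in R42A neural cultures, also with no call (log2 0.15 ± 0.11, adjusted p = 0.367). Gm4675, a long noncoding RNA that overlaps the start of Sox21, was called in neither stage (adjusted p = 0.124 in neural cultures and 0.434 in ESC).

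The genes whose levels ran most alike with the members over the 12 stage-by-clone sums followed the stage difference, and every correlation reported was above 0.98. For Nes they were Ust (Pearson r = 0.993) and Gm6325 (0.993), for Sox1 H2afy2 (0.995) and Nkx1-2 (0.994), and for Zic1 Barhl2 (0.998) and Dpysl5 (0.998). Over the 8 ESC clones alone, Nes ran most like Fgf5 (r = 0.995), a gene of the formative epiblast, Sox1 most like Nr4a2 (r = 0.990), and Sox21 most like Ssc4d (r = 0.993). Among members over these 8 clones, Nes ran with Sox21 (r = 0.84), Sox1 with Zfp521 (r = 0.86) and Zic1 with Pou3f3 (r = 0.91). These values describe clones that share genotype and series.

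Related gene lists give the setting of these changes. Sox2, the SOXB1 factor shared by ESC and neural progenitors, stood at 285 ± 11 CPM in MD neural cultures and 209.6 ± 2.94 CPM in R42A neural cultures (SD, n = 2). It was higher in MD there (log2 0.44 ± 0.05, adjusted p = 0.000641; with labels merged adjusted p = 0.0954) and not called in ESC (log2 0.11 ± 0.06, adjusted p = 0.151). Of 12 early neuroectoderm regulators, 2 were called higher and 2 lower in MD neural cultures, near the shares of all genes (background 17.4% higher, 16.3% lower). Among them were Lhx2, a LIM homeodomain factor of forebrain (1.86 ± 0.10, adjusted p = 9.21e-05) and Otx2, a factor of anterior neuroectoderm (-0.71 ± 0.11, adjusted p = 0.00327). In ESC 5 of the 12 regulators were called higher and 1 lower in MD (background 17.1% higher, 19.4% lower). Pou3f1 (Oct6), a POU factor of the epiblast, was higher there by 1.52 ± 0.17 (adjusted p = 0.000261).

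Of 16 genes of progenitor maintenance, 5 were called higher and 1 lower in MD neural cultures (background 17.4% higher, 16.3% lower). Sox9, a progenitor and glial factor, was higher (1.47 ± 0.19, adjusted p = 0.0016), and Hes3, a Notch pathway repressor, lower (-1.46 ± 0.13, adjusted p = 0.000336). The Sox9 change fell as low as 1.02 over 13 alternatives. Whole chromosomes were shifted too. The 1691 tested genes of chromosome 11 had a median log2 fold change of 0.48 in neural cultures, with 79.2% above 0. In ESC its 1608 tested genes had a median of 0.45, with 82.4% above 0. Such shifts were not taken out of the counts of called genes given for the lists. In ESC 7 of the 13 maintenance genes tested were called higher and 1 lower (background 17.1% higher, 19.4% lower). Ptn, a growth factor, was higher there (2.93 ± 0.58, adjusted p = 0.00449) and Hes1 lower (-0.81 ± 0.08, adjusted p = 0.000122). Of the lists of later steps, 10 of 11 proneural and neurogenic genes and 14 of 15 neuronal genes were called higher in MD neural cultures and 0 lower (background 17.4% higher). In ESC, 5 of 9 proneural and neurogenic genes tested were called higher and 1 lower, and 3 of 12 neuronal genes higher and 2 lower (background 17.1% higher, 19.4% lower). No difference between lists was tested. Neurog2, a proneural factor, had 26.1 ± 0.938 CPM in MD cultures and 4.93 ± 0.182 CPM in R42A cultures (log2 2.40 ± 0.17, adjusted p = 0.000179). Tubb3, the neuronal tubulin, had 603 ± 4.85 CPM in MD cultures and 274 ± 7.23 CPM in R42A cultures (log2 1.12 ± 0.29, adjusted p = 0.0234). Summed neuronal markers stood at 2754 to 2796 CPM in MD neural cultures and 972 to 989 CPM in R42A neural cultures, while the 10 markers summed to 1810 to 1877 CPM in MD cultures and 2123 to 2160 CPM in R42A cultures. Without Nes the other 9 summed to 1559 ± 41.9 CPM under the MD labels and 1552 ± 34.7 CPM under the R42A labels (SD, n = 2), so that the gap in the sum was that of Nes. With neural labels merged 0 of these genes were called.

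In ESC, 8 of 10 pluripotency genes were called lower in MD and 0 higher (background 17.1% higher, 19.4% lower), Tbx3 by -1.40 ± 0.10 (adjusted p = 4.49e-05). Their summed level was 4854 to 5778 CPM in MD clones and 5959 to 7126 CPM in R42A clones. In neural cultures it was 53.6 to 63.1 CPM in MD and 58.9 to 65.9 CPM in R42A, with 4 called higher and 4 lower (background 17.4% higher, 16.3% lower). The same background shares of each stage hold for the lists that follow. Neural crest markers were called higher in MD neural cultures in 5 of 9 and lower in 0, and in ESC higher in 1 of 7 tested and lower in 1. Surface ectoderm markers were lower in 3 of 8 in MD neural cultures, with Krt14, Krt5 and Trp63 under 0.1 CPM in every neural label, and in ESC higher in 3 of 8 and lower in 1. Their ESC sums overlapped, at 463 to 599 CPM in MD and 477 to 571 CPM in R42A. Mesoderm markers were lower in 2 of 9 in MD neural cultures, where they summed to 17.0 to 17.2 CPM in MD and 23.5 to 24.2 CPM in R42A. In ESC 2 of 7 mesoderm markers tested were higher and 0 lower, and the sums did not overlap, at 8.06 to 9.28 CPM in MD and 3.98 to 4.38 CPM in R42A. Glial markers were higher in 2 of 8 tested and lower in 2 in MD neural cultures, and in ESC higher in 2 of 6 tested and lower in 0. The neural counts of lower mesoderm markers and of glial markers lay near the shares of all genes. The part of such cells in the members' differences was not tested.

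**Figure D5:**
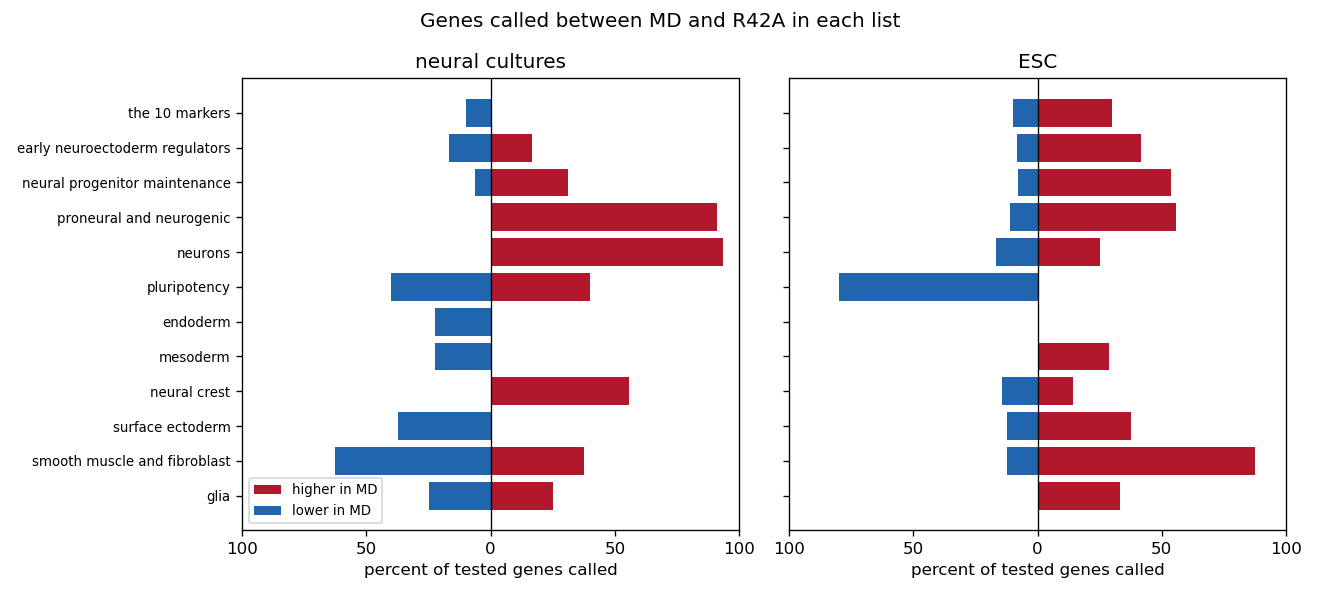
Percentage of tested genes of each list called higher (right) or lower (left) in MD than in R42A, in neural cultures and in ESC. Proneural and neuronal genes are nearly all higher in MD neural cultures (10 of 11 and 14 of 15), while 1 of the 10 markers was called there. Over all tested genes 17.4% were called higher and 16.3% lower in neural cultures, and 17.1% and 19.4% in ESC.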

How the data were processed

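The authors deposited expected counts per gene, 1 table per library and not normalised. Tools listed in the submitters' processing notes, with no role given, are RSEM 1.3.0, STAR 2.7.1a, Trim Galore 0.60 and DESeq2 (no version), with mm10 as build; the annotation release and the use of strand are not given in the sources used here. Per the labels' protocols, TRIzol RNA went into KAPA Hyper Prep libraries. Of 55665 entries per table, 92 spike-in entries with no counts were left out; between 1.46% and 1.70% of genes held values that were not whole (tolerance 1e-06), and all were rounded.

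Counts were summed over the libraries of a clone (8 in ESC, 4 labels in neural cultures) and tested with edgeR 4.0.16 (R 4.3.3): scaling by TMM, a low-count filter (filterByExpr, minimum 10), robust quasi-likelihood F-tests, Benjamini-Hochberg adjustment over all genes tested, call at 0.05. The ESC fit took the 8 clones with a term for library series. The neural, stage and stage-by-genotype contrasts came from 1 fit of 4 groups on the sums of the 4 labels found in both stages. The neural labels are taken as replicates only as far as the labels give them. Alternatives used DESeq2 1.42.0 and limma 3.58.1 (voom), other scalings and filters, single libraries, library series alone, and each clone left out.

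All 10 members are named. From every other list and genotype comparison the called genes of largest rise and fall (at least 1 CPM in one group) could be named, with Sox2, Tubb3, genes starting within 10 kb of a member, and the genes most correlated with each; log2 levels there had 0.05 CPM added. The members and the gene lists were chosen with earlier results of these data known. Where libraries are only numbered, p-values measure the spread between these samples, which may be technical. Numbers shared by MD and R42A libraries were not used to pair them in the fits on clone sums. Deviations of same-numbered libraries correlated at -0.18 to 0.42 in ESC. ESC and neural sums of 1 clone label were treated as the same line by label; deviations of A04 from A10 correlated at -0.040 between stages and those of 09 from 30 at 0.0030. On simulated counts for the ESC comparison, 90.9% of genes changed by 1 on the log2 scale were called among 21405. For the neural comparison it was 62.1% among 22925. The simulation gave every gene the same spread and no differences between clones or library series. These shares therefore need not hold for the real clones.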

Additional observations from a re-analysis of the deposited data

Results flagged for a closer look

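In ESC, 4 of 20 gene-by-genotype groups of 4 clones had 1 clone whose gap to the nearest other was a larger share of the group's range than Dixon's critical value for 4 values; chance flags about 1 in 20 groups. MD clone 45 was the high one for Sox1 (ratio 0.854), Zic1 (0.925) and Pou3f2 (0.934 of the range, at 180 counts against 11 to 33 in the other MD clones). R42A clone A04 was the low one for Zfp521 (0.836), at 3.98 CPM against 5.56 to 5.87 CPM in the other R42A clones.

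The difference between MD and R42A itself differed between neural cultures and ESC for 4 genes, by the test of that difference in edgeR: Nes by -2.68 (log2), Sox21 by -1.03, Msi1 by 0.56 and Zfp521 by 1.80. With neural labels merged 0 of the 4 were called (adjusted p from 0.0809 for Nes to 0.298 for Zfp521), and without label 09 or without label 30 Nes alone was (adjusted p = 0.0441 and 0.0413). Nes was lower in MD in neural cultures, where all MD libraries lay below all R42A libraries, as for 25.2% of 23844 genes. In ESC Nes was higher in MD, with every MD clone above every R42A clone, as for 10.8% of 21567 genes.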

How the results depend on the processing

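Every member stayed called higher in neural cultures than in ESC under all 13 alternatives in each genotype. In ESC, where 4 members and 7862 genes were called, 3084 genes were called with no series term, 1769 in the first series alone and 4879 in the second. Members called were 7 with DESeq2 (8641 genes) and 7 on single libraries with no block (10108 genes). They were also 7 on single libraries with the replicate block (replicate number as a term), with 10315 genes. Fits on single libraries count libraries of 1 clone as replicates. Limma voom called 5 members (7665 genes). Only 2 were called with chromosomes scaled separately (7089 genes), with no series term, or in either series alone. Leaving out 1 clone gave 2 (without 09 or A01) to 5 members and 5745 to 9330 genes.

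Between neural MD and R42A, where 1 member and 8030 genes were called, members were 2 with DESeq2, 2 with limma voom, 2 with chromosomes scaled separately, 8 on neural sums alone (13643 genes) and 0 with labels merged (0 genes). Leaving out 1 label gave 1 to 3 members (3 without A10, 2 without A04) and 1538 (without 30) or 1600 (without 09) to 9966 genes. With the replicate block on single libraries 1 member and 8649 genes were called. Genes called were 8528 with DESeq2, 7589 with limma voom and 7492 with chromosomes scaled separately. For the difference between stages, where 4 members and 5472 genes were called, leaving out 1 label gave 1 (without 09 or 30) to 7 (without A04) members and 77 (without 09) or 114 (without 30) to 8756 (without A04) genes; with labels merged it gave 0 members and 0 genes.

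Signs turned for uncalled genes: in ESC Zic1 (-0.64 without 45, to 0.88 over clones left out), Pou3f3 (-0.52 in the first series alone, -0.23 without 45, to 0.68) and Tubb3 (0.015 with chromosomes scaled separately); in neural cultures Sox21 (0.043 with chromosomes scaled separately, 0.0037 without A04, 0.0027 without 09, down to -0.035); between stages Zic1 (-0.15 without A04, to 0.55). The cause was not tested. Deviations of same-numbered MD and R42A libraries correlated at -0.18 to 0.42 in ESC and 0.016 in neural cultures. Clone label as a replicate block left 10 members called between stages in R42A (18150 genes) and 10 in MD (18862 genes). It left 4 called for their difference (3854 genes). Zic1, Pou3f2 and Pou3f3 in ESC are limited by depth, with 3 to 180 counts per clone.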
